A study of Mus musculus with 4 samples.

Results

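Immediate early genes are the genes that cells transcribe within minutes of a stimulus, without first making new protein. A list of 40 such genes was followed in tissue from the thalamus and hypothalamus of mice, to ask whether their levels differ after rearing without visual input. The list was drawn up by name: transcription factors of the AP-1, EGR, NR4A and KLF families, effectors at synapses, phosphatases and kinases, secreted factors and regulators of G protein signalling. A probe was found for 39 of the 40, Dusp5 having no matched probe, and 36 gave enough signal to be tested, out of 21424 genes tested in all. Both groups were mice at postnatal day 14. Dark-reared mice came from dams moved into a cage wrapped in black plastic 1 to 4 days before delivery. They were handled in dim red light and remained in the dark until sampling, whereas control mice lived on a cycle with 12 h of light a day. Each group had 2 samples, which the labels call biological replicates without saying how many animals each holds, and neither the strain nor the sex is given. Total RNA of each sample was hybridised to a one-colour Agilent array. No agent, transgene or light stimulus is named for either group, so the values are those of mice taken as they were and not of a timed response.

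In neurons, calcium entering through NMDA receptors and voltage-gated channels activates calmodulin kinases and the MAP kinase cascade, which act on the transcription factors CREB, SRF with its ELK partners, and MEF2 at immediate early promoters. The mRNAs made are short-lived, so their level follows recent activity. Light after a time in the dark is a classic stimulus for these genes in the visual pathway.

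Each value is a log2 signal after subtraction of the array's own 75th percentile, and a difference of 1 on this scale is 2-fold. A probe's value serves to compare arrays and not genes. Values are given in the order dark-reared 1, dark-reared 2, control 1, control 2. Between 65.9% and 73.3% of the 41174 probes were well above background on an array, and no spot was saturated. Dark-reared 2 and control 2 shared a slide, slide 3, and the other arrays were on slides of their own. Xist, made from the inactive X chromosome, gave 3.41, -5.83, 3.77 and -6.49, so the arrays with signal were dark-reared 1 and control 1. The Y-linked Ddx3y gave -0.33, 1.05, -6.56 and 1.16, so dark-reared 1 had signal for both. Markers of the labelled tissue were present but uneven. All 11 thalamic markers passed the detection filter. Slc17a6, which loads glutamate into synaptic vesicles, was at -1.02, 3.41, 3.88 and 1.63. Of 13 hypothalamic markers 9 passed, and Agrp, Otp, Pmch and Sim1 did not. Precision is bounded by the 4 arrays. In a design of 2 against 2 the smallest two-sided p of an exact permutation test is 0.333, and since it is not said whether the samples came from separate litters, p-values measure only the spread between these samples.

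Promoter sequence from RefSeq (GRCm38.p6) was at hand for 28 of the 40 genes. Egr1 and Arc were among the genes without it. The 250 bases before each start were searched on both strands for motifs known from immediate early promoters. Sites further from the start were not searched. A gene counted where any of its windows held the letters. The cyclic AMP response element TGACGTCA, which binds CREB, lay in the windows of 3 of the 28 genes (Btg2, Dusp1 and Plk2), and in 1.77% of 27025 genes in all. Its shorter core TGACG, which also lies inside the full element, was held by 18 of the 28 (64.3%) and by 19.8% of all genes. The EGR site GCGNGGGCG was found in 9 (32.1%, against 5.33%), the E-box CACGTG in 7 (25%, against 6.86%) and TATAAA in 6 (21.4%, against 14.3%). The CArG box, which binds SRF, was met in 2 (Dusp5 and Egr2; 7.14%, against 1.62%), and the AP-1 letters TGANTCA in none, against 7.82% of all genes. These are matches of letters and not shown sites. The shares were not matched for base composition, and TGACG, the EGR site and the E-box all contain the letters CG. The windows of 5 genes, all holding TGACG, are printed as examples. Egr4, Junb, Nr4a1 and Plk2 differed 1.73-fold or more between the replicates of each group. Fos, the gene most used as a marker of activity, did not. Inhba, which had the widest gap between dark-reared samples, had a window without TGACG and is not printed. Capitals mark TGACG on either strand, and each sequence runs 5′ to 3′ up to the base before the start.
Egr4, chr6:85513590-85513839, minus strand: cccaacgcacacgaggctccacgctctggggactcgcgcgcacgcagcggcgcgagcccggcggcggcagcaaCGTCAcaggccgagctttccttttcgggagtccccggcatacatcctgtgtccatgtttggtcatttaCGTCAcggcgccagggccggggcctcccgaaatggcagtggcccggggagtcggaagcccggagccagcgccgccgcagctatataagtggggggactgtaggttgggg
Junb, chr8:84978749-84978998, minus strand: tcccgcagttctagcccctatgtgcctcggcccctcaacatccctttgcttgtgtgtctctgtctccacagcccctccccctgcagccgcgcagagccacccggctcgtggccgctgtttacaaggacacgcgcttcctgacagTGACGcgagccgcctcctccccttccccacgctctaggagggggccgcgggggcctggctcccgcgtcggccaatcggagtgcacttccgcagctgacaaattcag
Nr4a1, chr15:101266596-101266845, plus strand: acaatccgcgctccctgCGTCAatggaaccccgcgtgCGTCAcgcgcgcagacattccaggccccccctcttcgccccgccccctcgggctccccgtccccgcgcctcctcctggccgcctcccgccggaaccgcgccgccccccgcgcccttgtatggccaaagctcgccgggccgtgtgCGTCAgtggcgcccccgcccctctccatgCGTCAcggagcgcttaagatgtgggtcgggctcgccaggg
Plk2, chr13:110394794-110395043, plus strand: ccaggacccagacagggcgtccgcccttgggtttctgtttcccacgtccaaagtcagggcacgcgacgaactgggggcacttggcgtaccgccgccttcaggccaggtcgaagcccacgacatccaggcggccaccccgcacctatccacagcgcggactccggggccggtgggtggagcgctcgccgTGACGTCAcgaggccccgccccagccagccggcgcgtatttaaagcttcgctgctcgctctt
Fos, chr12:85473640-85473889, plus strand: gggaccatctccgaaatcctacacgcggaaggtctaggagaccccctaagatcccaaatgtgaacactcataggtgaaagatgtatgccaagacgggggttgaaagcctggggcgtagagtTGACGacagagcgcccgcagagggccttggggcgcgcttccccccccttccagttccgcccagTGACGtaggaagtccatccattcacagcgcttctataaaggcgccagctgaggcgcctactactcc
Nr4a1 held 4 copies of TGACG, the nearest ending 36 bases before the start. Egr4 and Fos each held 2, whose nearest copies ended at 105 and 62 bases, and Junb held 1, ending at 102 bases. In Plk2 the full element lay from 62 to 55 bases before the start and so was matched on both strands.

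None of the immediate early genes passed the test of rearing. In the limma fit 0 of 36 had a Benjamini-Hochberg adjusted p under 0.05, nor did any of the 21424 genes (0%), and 1 gene of the list, Gem, and 269 of all genes had an unadjusted p under 0.05. Gem was not well above background on control 2, and where all 4 arrays had to be, it was not tested and 0 genes of the list and 154 of all genes had such a p. Dark-reared means were higher for 25 and lower for 11 of the 36, and over all genes tested higher for 10340 and lower for 11084. The median log2 difference was 0.08, against -0.01 over all genes tested. With dark-reared 1 left out the median was -0.07, with dark-reared 2 left out 0.27, with control 1 left out 0.00 and with control 2 left out 0.17. Within slide 3 it was -0.16. The spread between arrays was wide. The median range over the 4 arrays was 0.92 for these genes and 0.42 over all genes, and the median standard error of the difference was 0.35 against 0.20. In 33 of the 36 the replicates of at least 1 group lay further apart than the group means did, as in 19134 of the 21424. Leaving out 1 array turned the sign of 12 to 14 of the 36 differences, those of Fos, Junb, Nr4a1 and Arc among them.

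By family, the range over arrays was widest for the EGR genes (a median of 1.98), zinc finger transcription factors induced through SRF in active neurons. Egr1 had log2 values of 4.08, 2.45, 2.44 and 3.95. Dark-reared 1 and control 2 were high, dark-reared 2 and control 1 low, and the groups overlapped fully. Egr2 gave 0.77, -0.91, -1.50 and 0.69, and Egr4 gave 3.33, 2.10, 1.35 and 3.32, in both cases with the same arrays on top. Between the dark-reared samples Egr1 differed 3.09-fold, Egr2 3.22-fold and Egr4 2.34-fold, and between the control samples 2.84-fold, 4.57-fold and 3.91-fold. The group difference of Egr1 was 0.07 (limma SE 0.80, unadjusted p = 0.935). That of Egr2 was 0.33 (limma SE 0.99, unadjusted p = 0.753) and that of Egr4 was 0.38 (limma SE 0.84, unadjusted p = 0.672), all with a limma adjusted p = 1.00. Their sign followed the arrays used. Within slide 3 all were lower in the dark-reared sample, with differences of -1.5, -1.61 and -1.21, and without dark-reared 1 they were -0.74, -0.51 and -0.23. Without dark-reared 2 they became 0.88, 1.18 and 0.99, without control 1 -0.68, -0.76 and -0.60, and without control 2 0.82, 1.43 and 1.37. The probe of Egr2 was spotted 10 times per array, and the SD of the log2 signal over these spots was 0.06 to 0.08, so the differences between replicates were far larger than the spread within an array. Egr3 was below the detection limit, on no array well above background.

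**Figure D1:**
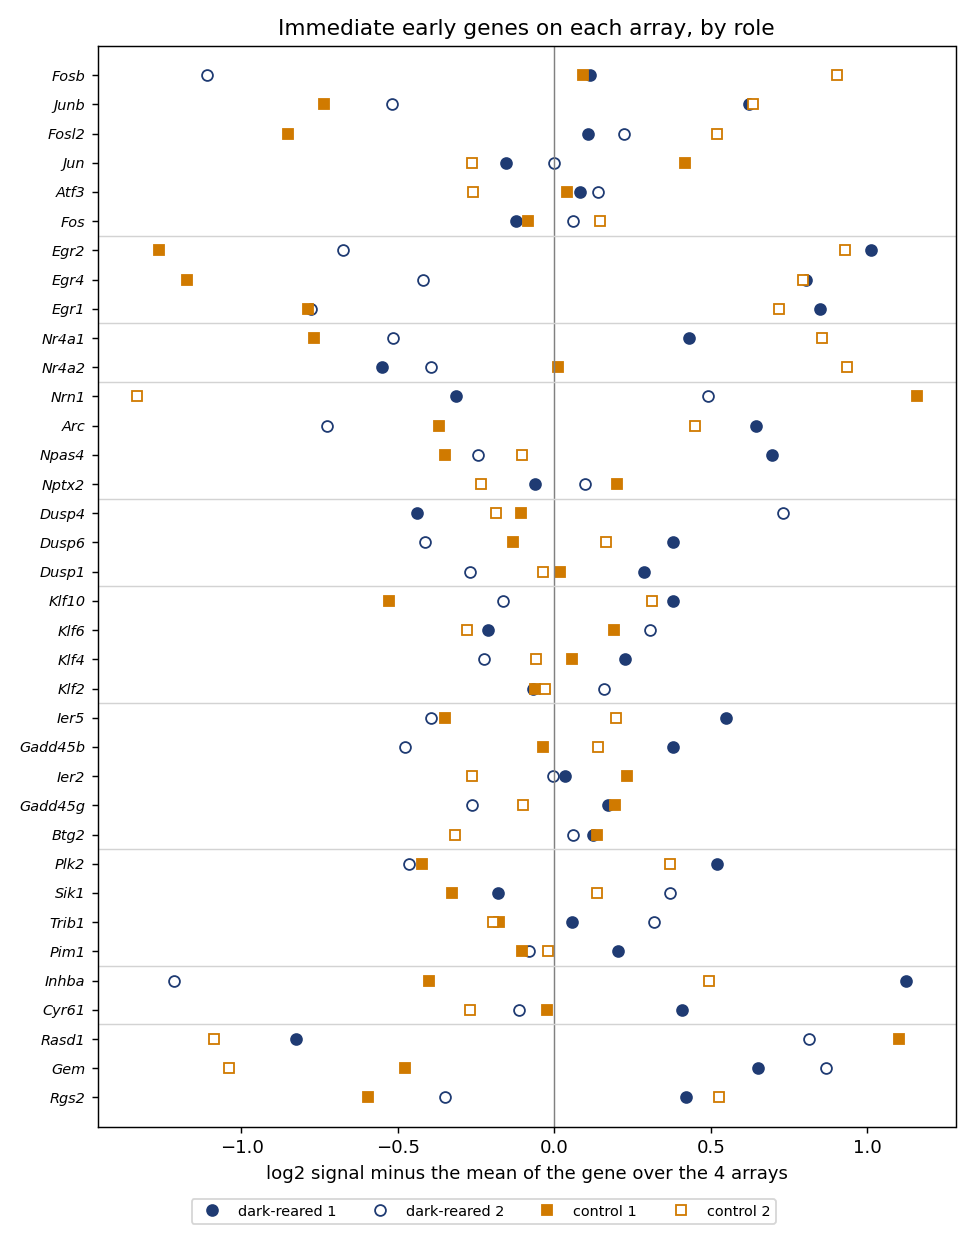
Log2 signal of the 36 immediate early genes tested, as the deviation of each array from the gene's mean over the 4 arrays, grouped by role; circles are dark-reared and squares control samples, filled for replicate 1 and open for replicate 2. In Egr1, Egr2, Egr4, Junb and Nr4a1 the filled circle and the open square lie on the right, 1 array of each group, and in Rasd1 and Nrn1 they lie on the left.

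Among the AP-1 factors, which pair as Fos and Jun proteins to bind DNA, Fos itself was nearly flat, at -1.73, -1.55, -1.69 and -1.46. Its groups overlapped, and its difference was -0.06 (limma SE 0.17, unadjusted p = 0.733). The SD over its 10 spots per array was 0.05 to 0.11. These spots are copies of the same probe, so the flat values of Fos rest on 1 probe. Junb, a Jun protein with 1 copy of the core in the window shown above, behaved otherwise: it read 3.51, 2.37, 2.15 and 3.52, the arrays dividing as for the EGR genes. Its group difference was 0.10 (limma SE 0.65, unadjusted p = 0.884). Another Junb probe gave 2.16, 1.40, 1.28 and 2.29, the same high and low arrays, with a group difference of -0.004. Fosb, a partner that persists as a stable splice form after repeated activity, gave -3.36, -4.59, -3.39 and -2.57. It had a log2 difference of -1.0 (limma SE 0.54, unadjusted p = 0.140, adjusted p = 1.00), and its groups overlapped because dark-reared 1 and control 1 were near equal. With dark-reared 1 left out the Fosb difference was -1.61, with dark-reared 2 left out -0.38, with control 1 left out -1.40 and with control 2 left out -0.59. It was -0.53 with normexp after outlying local backgrounds were replaced, and -2.01 within slide 3. Jun gave -0.06, 0.09, 0.51 and -0.17, with control 1 highest. Fosl2 gave -3.29, -3.17, -4.24 and -2.87, spread mainly between the controls. The Fosl2 difference was 0.33, but -0.37 with the same normexp fit, and 0.12 when outlying local backgrounds were first replaced. Another Fosl2 probe was on no array well above background and had a difference of -0.52. Atf3, a stress-induced partner of Jun proteins, had -3.80, -3.75, -3.84 and -4.15, both dark-reared values above both controls by little. Its difference was 0.22 (limma SE 0.18, unadjusted p = 0.282), and 0.40 within slide 3. With normexp, limited by that failed fit, it was -0.49, and 0.17 when the outlying local backgrounds were first replaced.

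The NR4A receptors, which act as transcription factors without a known bound hormone, did not vary together. Nr4a1 gave 4.07, 3.13, 2.88 and 4.50, high on dark-reared 1 and control 2 as the EGR genes were. Its group difference was -0.09 (limma SE 0.68, unadjusted p = 0.903), whereas the controls alone differed 3.08-fold. Nr4a2, which also marks dopaminergic and some deep cortical neurons, read -0.68, -0.53, -0.12 and 0.80, so both dark-reared samples lay below both controls. Its log2 difference was -0.95 (limma SE 0.36, unadjusted p = 0.059, adjusted p = 1.00) and -1.33 within slide 3, and it stayed negative without any of the arrays, between -1.41 and -0.48. Nr4a3 was on no array well above background.

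Of all 36 genes, 4 had groups that did not overlap, Gem, Nr4a2, Trib1 and Atf3. Among all genes tested 19.0% had no overlap, so the share in the list was not above that of all genes. A difference of at least 2-fold without overlap was found for 1 of the 36, Gem, and for 1.19% of all genes (255). With 1 array left out, so that its partner stood for the group, that count was 3 (dark-reared 1 left out), 4 (dark-reared 2), 5 (control 1) and 6 (control 2), while the share of all genes rose as well, to 4.12%, 4.02%, 3.71% and 2.45% in the same order. Gem, a small GTPase that restrains voltage-gated calcium channels, gave -3.45, -3.23, -4.58 and -5.14. Both dark-reared values were above both controls, a log2 difference of 1.52 (limma SE 0.25), and 1.91 within slide 3. These signals were low. Gem was well above background on both dark-reared arrays but on only 1 of the 2 control arrays, so it passed the detection filter through the group where it was higher, and its difference rests in part on a value at background. With normexp background correction, whose background fit failed on control 2, its difference was -0.14. It was 0.65 when the outlying local backgrounds were first replaced. Trib1, a pseudokinase that brings targets to a ubiquitin ligase, gave -0.65, -0.38, -0.88 and -0.90, a difference of 0.37 (limma SE 0.17, unadjusted p = 0.089). It was 0.52 within slide 3 and 0.24 to 0.51 without each array in turn.

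**Figure D2:**
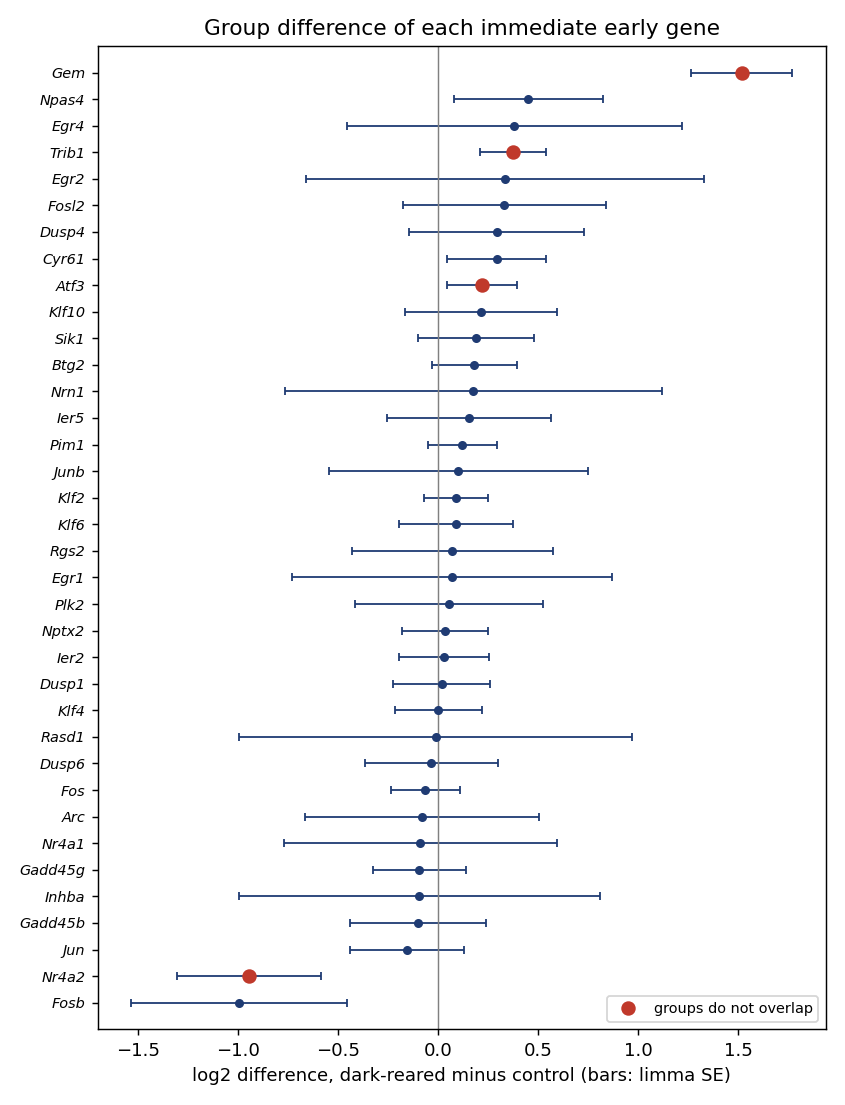
Log2 difference of each of the 36 immediate early genes, dark-reared minus control, with limma's standard error as bars, in order of size; large red points mark the 4 genes whose groups do not overlap. Gem is at 1.52 and Fosb at -1.0 at the ends, and the genes with the widest bars, such as Egr2 with an SE of 0.99, lie near 0.

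The neuronal effectors were divided as well. Arc, whose protein removes AMPA receptors from synapses, gave 3.37, 2.00, 2.36 and 3.18. The high arrays were dark-reared 1 and control 2, and the difference between groups was -0.08 (limma SE 0.58, unadjusted p = 0.897). Npas4, a transcription factor that answers calcium almost alone and shapes inhibitory synapses, read -1.48, -2.42, -2.52 and -2.28, high on dark-reared 1 and nearly level elsewhere. Its difference was 0.45 (limma SE 0.37, unadjusted p = 0.292), but -0.02 without dark-reared 1. Nrn1, a membrane-anchored protein that supports neurite and synapse growth, ran the other way from Arc with 0.86, 1.66, 2.33 and -0.16. Nptx2, a secreted pentraxin that gathers AMPA receptors, held within -1.06, -0.90, -0.80 and -1.23.

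The phosphatases of MAP kinases had a narrower range (a median of 0.79). Dusp6, the phosphatase of ERK, gave 2.87, 2.08, 2.36 and 2.66, again high on dark-reared 1 and control 2. Dusp1, which acts on several MAP kinases in the nucleus, gave -0.19, -0.75, -0.46 and -0.51, and Dusp4 gave -2.84, -1.67, -2.51 and -2.59, with dark-reared 2 alone high. The group differences of these phosphatases lay between -0.03 and 0.29, with overlap in each. Among regulators of G protein signalling, Rgs2, which speeds the switching off of Gq signals, read 4.01, 3.25, 3.0 and 4.12, and another Rgs2 probe gave -0.53, -1.55, -1.57 and -0.43. Both Rgs2 probes split the arrays alike, while their group differences were 0.07 and -0.04. Rasd1, a Ras-like G protein induced by glucocorticoids, gave -1.86, -0.22, 0.06 and -2.13. It had the opposite order to the EGR genes and nearly the same group mean, the difference being -0.01 (SE 0.98).

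Of the kinases, Plk2, a polo-like kinase that lowers synaptic strength after long activity and that held the full element above, gave 1.68, 0.70, 0.74 and 1.53. Sik1, a kinase that restrains CREB coactivators, gave -2.59, -2.04, -2.73 and -2.27, and Pim1 gave -3.19, -3.47, -3.49 and -3.41. Plk2 thus followed the split of Egr1, while Sik1 was highest on dark-reared 2. Inhba, the activin subunit, had the widest dark-reared gap of the list with 1.86, -0.48, 0.33 and 1.23, and a group difference of -0.09 (SE 0.90). Cyr61, a secreted matrix protein now named Ccn1, gave -1.22, -1.74, -1.64 and -1.89, a difference of 0.29 with overlap. Ptgs2, the inducible cyclooxygenase, was well above background on dark-reared 2 and control 1 alone, at -3.78 and -3.97, against -5.91 on dark-reared 1 and -6.43 on control 2. Another Ptgs2 probe was well above background on the same arrays. It did not pass the detection filter and has no test.

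The KLF zinc fingers and the growth arrest genes varied least by family, with median ranges of 0.52 and 0.49. Klf2 gave 3.49, 3.72, 3.50 and 3.53, Klf4 1.42, 0.97, 1.26 and 1.14, and Klf6 1.98, 2.49, 2.38 and 1.91. Klf10, at 0.60, 0.05, -0.31 and 0.53, was the KLF gene that took the order of the EGR genes. The group differences of all 4 lay between 0.00 and 0.22. Ier5 gave 3.31, 2.37, 2.41 and 2.96, and Gadd45b, which takes part in DNA demethylation and stress signalling, gave 0.00, -0.85, -0.41 and -0.24, both high on dark-reared 1 and control 2. Ier2 (-1.38, -1.42, -1.19 and -1.68), Btg2 (-0.81, -0.87, -0.80 and -1.25) and Gadd45g (3.30, 2.87, 3.32 and 3.03) did not share that order. Btg2, an antiproliferative regulator of mRNA decay, had 3 probes whose group differences were 0.18, 0.10 and -0.19, so its direction depended on the probe. Another Klf2 probe gave 0.73, 0.50, 0.43 and 0.32, an order unlike that of the brighter one, whereas the paired probes of Klf6 and of Gadd45b had the same highest arrays.

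Read by array and not by rearing, part of the list shared its 2 highest arrays. These were dark-reared 1 and control 2 for 16 of the 36 genes (44.4%), while 25.7% of all genes had that order. The 16 were Arc, Dusp6, Egr1, Egr2, Egr4, Fosb, Gadd45b, Ier5, Inhba, Junb, Klf10, Npas4, Nr4a1, Pim1, Plk2 and Rgs2. No margin was required. Fosb read -3.36 on dark-reared 1 and -3.39 on control 1, and Pim1 had a range of only 0.31 over the arrays. The reverse, dark-reared 2 and control 1 highest, was seen for 6 (Dusp4, Jun, Klf6, Nptx2, Nrn1 and Rasd1), while 22.8% of all genes did so. The remaining 14 genes had other orders. The dark-reared samples differed at least 2-fold for 9 of the 36 and for 9.75% of all genes, and the control samples for 9 of the 36 and for 4.82%. Both pairs did so for 5, Egr1, Egr2, Egr4, Junb and Rasd1, against 1.62% of all genes. Each of the 5 had 1 dark-reared and 1 control sample on either side.

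**Figure D3:**
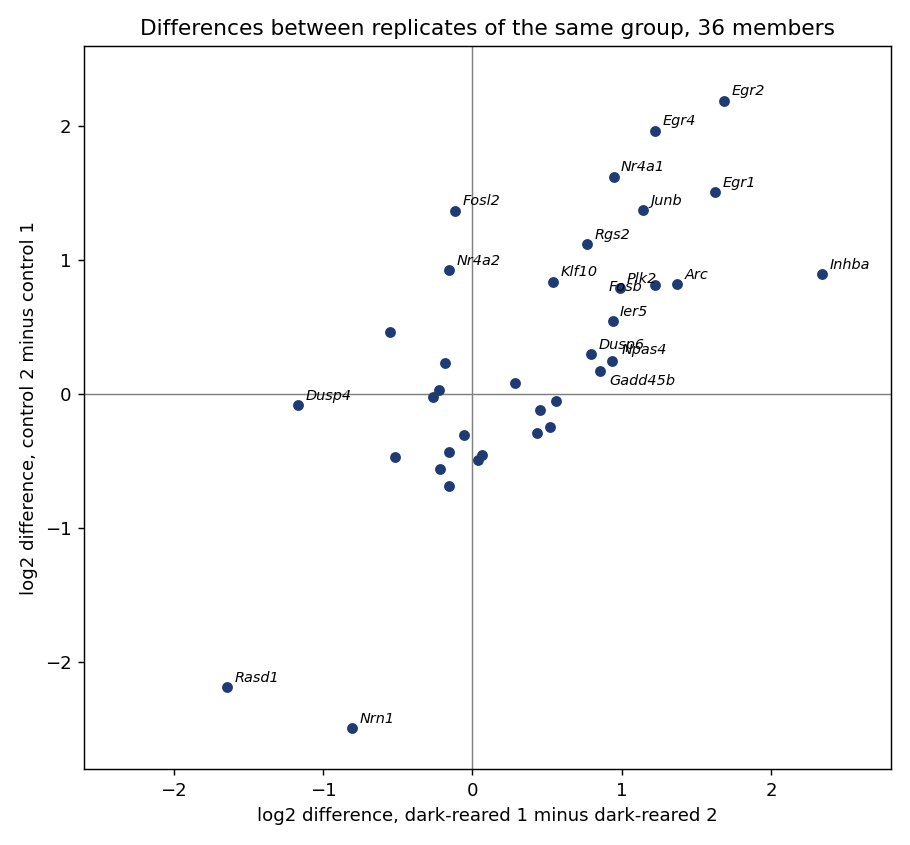
Differences between replicates of the same group for the 36 immediate early genes: log2 signal of dark-reared 1 minus dark-reared 2 on the horizontal axis and of control 2 minus control 1 on the vertical axis, 1 point per gene, with names where a difference is large. Egr2 lies at 1.69 and 2.19 in the upper right, Rasd1 at -1.64 and -2.19 in the lower left.

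Other gene groups moved with the same arrays. All 10 markers of the striatum, which lies beside the thalamus and is no part of the labelled tissue, had dark-reared 1 and control 2 as their 2 highest arrays. Averaged over the 10 genes, log2 signals deviated from their 4-array means by 0.83, -0.78, -0.67 and 0.62, so the dark-reared samples spanned -0.78 to 0.83 and the controls -0.67 to 0.62. Ppp1r1b, the dopamine-regulated phosphatase inhibitor of striatal neurons, gave 3.63, 1.54, 1.84 and 3.15, and the dopamine receptor gene Drd1 gave 2.71, 1.33, 1.15 and 2.52. None of the 10 striatal markers was at background. The means of thalamic markers ran the other way, at -1.04, 0.44, 1.00 and -0.39 over 11 genes. So did those of hypothalamic markers, at -1.91, 0.49, 1.5 and -0.08 over 9. Dark-reared 2 and control 1 were the 2 highest arrays for 7 of the 11 and 6 of the 9, against 22.8% of all genes. Dark-reared means were lower for 10 of the 11, with a median log2 difference of -0.51, and for 8 of the 9, with a median of -0.99. Limma called 0 in either list. For the 36 immediate early genes the mean deviation was 0.23, -0.14, -0.17 and 0.09. In tissue pieces like these, fewer cells of a type and less RNA per cell cannot be told apart. The part of these markers in the spread of the immediate early genes was not tested.

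**Figure D4:**
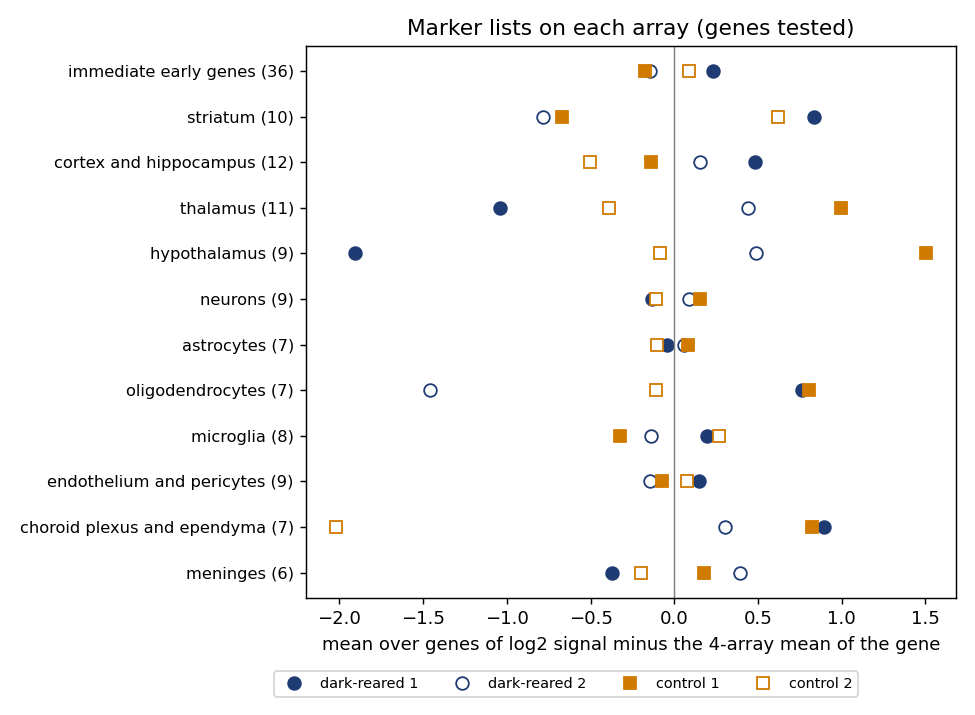
Mean deviation of the log2 signal from each gene's 4-array mean, for the immediate early genes and 11 marker lists (genes tested in parentheses), 1 symbol per array. Striatal markers have dark-reared 1 (0.83) and control 2 (0.62) on the right and thalamic markers have them on the left (-1.04 and -0.39), as do hypothalamic markers (-1.91 and -0.08).

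Markers of other cell types were divided in several ways. Neuronal markers averaged -0.13, 0.09, 0.15 and -0.11 over 9 genes, which did not all run the same way, and their median range over arrays was 0.72. Microglial markers, at 0.19, -0.14, -0.32 and 0.27 over 8 genes, and endothelial and pericyte markers, at 0.15, -0.15, -0.07 and 0.07 over 9, deviated on the side of the striatal ones. Dark-reared 1 and control 2 were the 2 highest arrays for 6 of the 8 microglial and 7 of the 9 endothelial and pericyte markers. Over all genes that share was 25.7%. Cortical and hippocampal markers (0.49, 0.16, -0.14 and -0.50), oligodendrocyte markers (0.76, -1.46, 0.81 and -0.11) and markers of choroid plexus and ependyma (0.89, 0.30, 0.82 and -2.02) had other orders. Astrocyte markers lay between -0.10 and 0.08 and meningeal markers between -0.37 and 0.39. Their part in the values of the immediate early genes was not tested either.

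Of 47 listed genes that signal upstream of the immediate early genes 45 were tested, and limma called 0, with 0 at an unadjusted p under 0.05. Of these 23 were higher and 22 lower, with a median log2 difference of 0.01. The largest differences were those of Mef2c, an activity-dependent transcription factor (0.58), Camk2b, a calmodulin kinase subunit (0.40), the ribosomal S6 kinase gene Rps6ka1 (-0.37) and the adenylyl cyclase gene Adcy8 (-0.33). For 31 of the 45 the highest arrays were dark-reared 1 and control 2, against 25.7% of all genes. For 4 they were dark-reared 2 and control 1, against 22.8%. Mef2c and Camk2a are in the cortical marker list too.

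Of 25 further stimulus-induced genes 24 were tested. Limma called 0, again with 0 at an unadjusted p under 0.05, and 16 were higher and 8 lower, with a median of 0.05. The largest differences were those of Cebpd (0.34), Fosl1 (0.32), Ccn2 (0.30) and Nfkbia (0.26), which include the inhibitor of NF-kB and a matrix protein related to Cyr61. Of 18 genes that rise later after activity 15 were tested, with 0 called by limma, 0 at an unadjusted p under 0.05, 6 higher, 9 lower and a median of -0.20. The largest differences in that list were those of the secretogranin gene Scg2 (-0.42), the G protein regulator Rgs4 (-0.42), the prohormone convertase gene Pcsk1 (-0.42) and the plasminogen activator gene Plat (-0.40). The arrays high for the EGR genes were the highest for 11 of the 24 and for 5 of the 15 (33.3%), against 25.7% of all genes. The opposite pair was highest for 5 of the 24 and for 6 of the 15 (40%), against 22.8% of all genes. Penk and Tac1 of the later list are striatal markers as well.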

How the data were processed

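Per the file headers, Agilent Feature Extraction 10.7.3.1 gave the spot intensities. The submitters' processing notes name version 10.7. The deposited intensity is a processed signal, corrected for background within 1 array and not brought to a common scale. A table of log2 values was deposited too, with a median of 6.84 on every array, that correlated at 0.999 to 1.000 with log2 processed signal of the same array. How these were normalized is not stated in the labels or headers, and they served as an alternative.

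Outlier spots (79 to 103 per array) were left out, the spots of a probe averaged, and log2 of the array's 75th percentile subtracted. Of 41174 probes, 26918 received a symbol through RefSeq accessions (GRCm38.p6, for names alone, as the array annotation is mm9 per the file headers) and 14256 none. Kept were the 28442 probes well above background in both samples of a group, with the brightest probe for each gene, leaving 21424 genes. The comparison used lmFit and eBayes of limma 3.58.1 (R 4.3.3), with two-sided p-values adjusted by Benjamini-Hochberg over every gene tested, a threshold of 0.05, and a check on simulated data. The 40 genes, the other lists and the motifs were chosen with earlier results of these data known, so counts over lists have no test. Every gene of the 40 is named, with at most 4 of each signalling and activity list, those with the largest difference among genes well above background on all arrays. Examples from marker lists were chosen after their values were seen.

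Replicate numbers appear in both groups. Deviations of same-numbered samples from their group means correlated at -0.16 across 21420 genes, so the numbers were not taken as pairs. Alternatives were other normalizations, background corrections, filters, probe rules and variance models, the replicate number or slide as a block, and fits without each array.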

Additional observations from a re-analysis of the deposited data

How the results depend on the processing

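Limma called 0 of the immediate early genes and 0 of all genes in every alternative fitted, and the lowest adjusted p of an immediate early gene in any of them was 0.679. The count at least 2-fold apart without overlap, 1, was 0 with normexp, 0 with normexp after outlying local backgrounds were replaced, and 0 where probes had to be well above background on all 4 arrays, when 35 genes were tested and Gem was not. Over all genes it fell from 255 to 152, 23 and 77 in these settings. Without each array in turn it was 3 to 6, and over all genes 524 to 882 (2.45% to 4.12%). The median difference, 0.08, was -0.16 with slide as a block, which is the difference within slide 3 and has no residual degrees of freedom, so no test.

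With normexp the sign turned for 17 of 36 genes, among them Arc (0.076), Atf3 (-0.49), Gem (-0.14), Npas4 (-0.018) and Nr4a1 (0.17). The median of all genes moved to -0.12 there, and the fitted background mean of control 2 was -236, against -5.70 to 2.97 on the other arrays. It was -4.25 once outlying local backgrounds were replaced. The normexp fit of control 2 thus failed, and the signs turned in that setting cannot be read apart from this failure. Median spot signals were used, since the files used here have no mean signal. With replaced backgrounds, a setting chosen after seeing the data, 3 signs turned, among them Nr4a1 (0.017). With slide as a block 15 turned, among them Egr1 (-1.50), Egr2 (-1.61), Egr4 (-1.21), Junb (-1.16) and Npas4 (-0.14). Leaving out 1 array turned 12 to 14 signs. The differences then ran from -0.74 to 0.88 for Egr1, -0.76 to 1.43 for Egr2, -0.60 to 1.37 for Egr4, -0.58 to 0.79 for Junb, -0.90 to 0.72 for Nr4a1, -0.77 to 0.61 for Arc, -0.017 to 0.92 for Npas4 and -0.18 to 0.051 for Fos. The lone array of a group was given the spread of the other one. The causes were not tested. The replicate block called 0 genes and turned no sign, and a crossed replicate block, added after seeing the correlation of -0.16, called 0. Signals close to background limit Gem, Egr3, Nr4a3 and Ptgs2. Fosb on dark-reared 2 (-4.59) and Atf3 on control 2 (-4.15) were dim too. The lowest values well above background on these arrays were -5.07 and -4.46.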
